A study of Mus musculus with 8 samples.

Results

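Expression of 10 genes of bone morphogenetic protein (Bmp) signalling was followed in gastrula embryos with and without Foxa2, the transcription factor needed for the node, the mouse counterpart of the Spemann organizer. They were the ligands Bmp2, Bmp4 and Bmp7, the receptor Bmpr1a, the signal transducer Smad5, and the Bmp-responsive genes Id1, Id2, Id3, Msx1 and Msx2. All probe sets annotated to these genes were taken, 13 of 12422 on the Affymetrix U74Av2 array and 23 of 45037 on the MOE430v2 array, for 10 of the 8251 and 18193 genes named on these platforms. The comparison addressed whether ligands, transducers and responsive genes of the pathway differed when the node, a source of secreted Bmp antagonists, did not form.

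RNA was taken from 2 pools of Foxa2 null embryos, of 53 and 48 embryos, and from 2 wild-type pools, of 53 and 50 embryos, collected at embryonic day 7.5 after the extra-embryonic region had been cut away. Both platforms received RNA of the same 4 extracts, which gave 8 arrays and n = 2 pools per genotype. By the methods, the MOE430v2 arrays later received the hybridization mixtures made for U74Av2, so the 2 platforms do not repeat the RNA preparation. Wild-type embryos came from ICR matings, and Foxa2 null embryos were made from Foxa2 null embryonic stem cells by tetraploid complementation, in which the host embryo supplies wild-type extra-embryonic tissue, visceral endoderm included. The methods state that this endoderm was kept with the Foxa2 null embryo proper, so the Foxa2 null pools also held cells with intact Foxa2. Labels of the MOE430v2 mutant arrays give ICR as well, which leaves the strain of the stem cells unsettled, and genotype, cell origin and embryo manipulation cannot be told apart. The study's staging record has wild-type pool 2 as the youngest of the 4. Within a bulk pool, fewer cells of a type and less RNA per cell cannot be told apart.

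Bmp ligands are secreted dimers of the transforming growth factor beta family that bind type I and type II receptor kinases. The activated type I receptor phosphorylates Smad1, Smad5 and Smad9, which enter the nucleus with Smad4 and switch on target genes, among them the Id and Msx families. In the gastrula, Bmp4 from extra-embryonic tissue is needed for mesoderm and primordial germ cells, while Chordin and Noggin, secreted by the node and its derivatives, bind Bmps and keep them from their receptors.

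Foxa2 itself was lower in both Foxa2 null pools on each platform. On U74Av2 the log2 signal was 6.39 and 6.55 in the Foxa2 null pools, against 7.37 and 8.08 in the wild-type pools, a log2 ratio of -1.25 (SE 0.26, adjusted p = 0.13 by limma with Benjamini-Hochberg). On MOE430v2 it was 8.96 and 9.06 in the Foxa2 null pools, against 9.62 and 10.17 in the wild-type pools (-0.88, SE 0.21, adjusted p = 0.142). The part of Foxa2 that was deleted is not set against the probe positions here. The 6 node and notochord markers tested on MOE430v2, Foxa2 itself among them, all lay below 0 (median log2 ratio -1.16). Their summed signal, which includes Foxa2, was 1275 and 1501 in the Foxa2 null pools and 2816 and 3450 in the wild-type pools. Among them Foxj1 had overlapping groups, at 6.86 and 6.85 in the Foxa2 null pools against 6.50 and 8.35 in the wild-type pools.

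None of the 10 genes passed an adjusted p of 0.05 on either platform or over both. By the brightest probe set per gene Msx2 stood highest, with both Foxa2 null arrays above both wild-type arrays on each platform, with a log2 ratio of 0.74 on U74Av2 and 0.48 on MOE430v2. Id2 was also above wild-type without overlap on both platforms, at 0.39 and 0.29, while Id1, Id3 and Msx1 lay between -0.08 and 0.19. The brightest probe sets of the 3 ligands had log2 ratios between -0.50 and -0.06 on U74Av2 and between -0.32 and 0.28 on MOE430v2.

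On U74Av2, 11 of the 13 probe sets were bright enough to be tested, 6 above and 5 below 0. By limma, 0 of these passed an adjusted p of 0.05, against 0.276% of all 8695 probe sets tested, and 1 was higher and 0 lower at an unadjusted p under 0.05, against 5.01% of all in each direction. The Foxa2 null arrays lay above the wild-type arrays without overlap for 3 probe sets, against 18.6% of all, and below for 2, against 21.4%. On MOE430v2, 22 of the 23 were tested, 11 on each side of 0, and 0 passed by limma, against 0.435% of all 31526. A single probe set was higher at an unadjusted p under 0.05, against 6.04% of all, and 2 were lower, against 6.07%. There were 5 above without overlap, against 21.5% of all, and 5 below, against 21.8%. The members' median log2 ratio was 0.08 on U74Av2 and 0.01 on MOE430v2, beside -0.02 and -0.0005 over all probe sets tested. These shares were near the background, and with 2 pools against 2 an exact permutation test of a single probe set cannot give a two-sided p under 0.333.

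**Figure D1:**
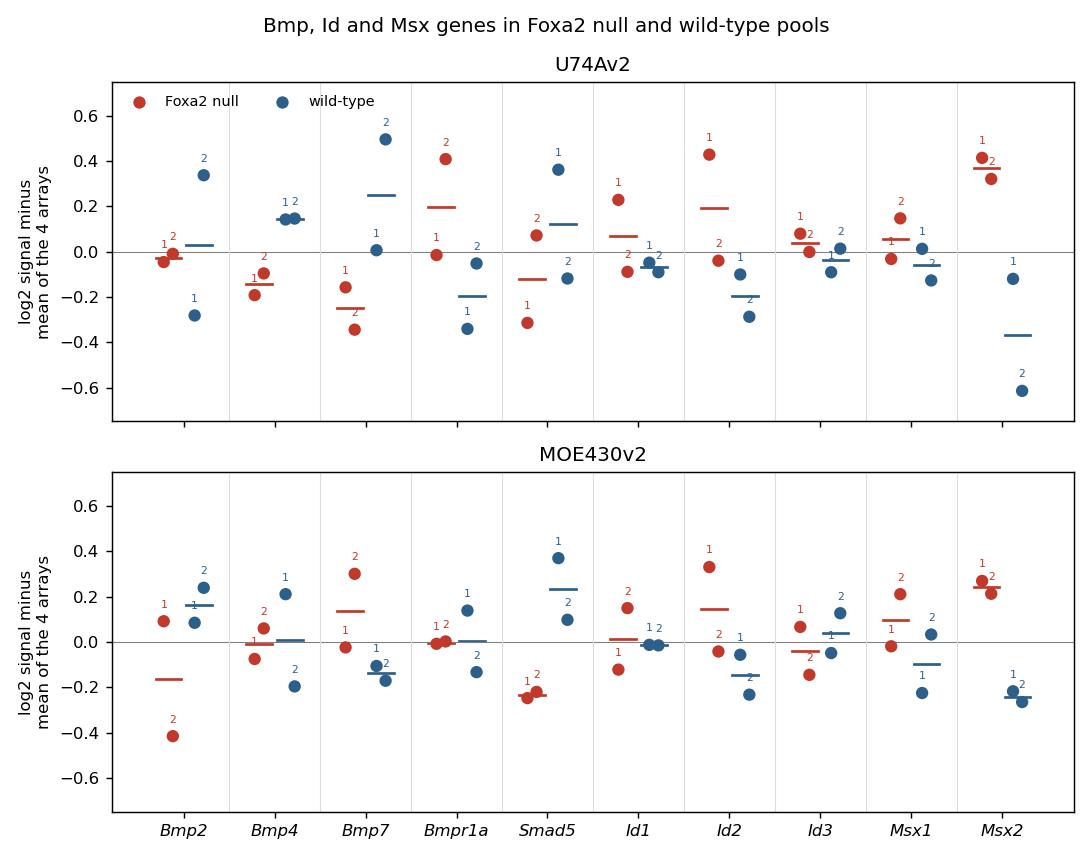
Log2 signal of each gene minus its mean over the 4 arrays (vertical axis) on U74Av2 (top) and MOE430v2 (bottom), with Foxa2 null pools in red left of wild-type pools in blue, pool numbers beside the points, short lines for means, and the probe set of highest signal per gene. Both Foxa2 null pools lie above both wild-type pools for Msx2 and Id2 in each panel, and the largest gap between group means is that of Msx2 on U74Av2 (log2 ratio 0.74).

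Bmp2, a ligand needed for amnion and heart formation, lies on chromosome 2 (chr2:133552159-133562896, GRCm38.p6). It gave a U74Av2 log2 signal of 5.29 and 5.33 in the Foxa2 null pools, against 5.05 and 5.67 in the wild-type pools, so that both Foxa2 null values fell between the wild-type ones (log2 ratio -0.06, SE 0.33, 95% interval -0.81 to 0.70). Its other U74Av2 probe sets, 161901_r_at and 161118_r_at, were among the dimmest 30% and were not tested. On MOE430v2 the Bmp2 signal was 9.50 and 9.0 in the Foxa2 null pools, against 9.50 and 9.65 in the wild-type pools, with Foxa2 null pool 2 alone below the other 3. The log2 ratio was -0.32 (SE 0.21, 95% interval -0.80 to 0.15, adjusted p = 0.588 by limma).

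Bmp4, the ligand whose loss blocks mesoderm formation, lies on chromosome 14 (chr14:46383525-46390669). Probe set 93455_s_at on U74Av2 gave 7.15 and 7.25 in the Foxa2 null pools, against 7.49 and 7.49 in the wild-type pools. The groups did not overlap, yet the difference was small (log2 ratio -0.29, SE 0.18, adjusted p = 0.663 by limma). In Affymetrix naming the suffix _s marks probes shared by several transcripts. The second U74Av2 probe set, 93456_r_at, gave 5.58 and 6.77 in the Foxa2 null pools, against 7.18 and 6.51 in the wild-type pools, with a log2 ratio of -0.67 and a wide interval of -1.56 to 0.22. On MOE430v2 Bmp4 read 9.55 and 9.69 in the Foxa2 null pools, between the wild-type values of 9.84 and 9.43 (log2 ratio -0.02, 95% interval -0.44 to 0.41).

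Bmp7, a ligand that the node and notochord also make, lies on chromosome 2 (chr2:172868012-172940321), and its probe sets did not point one way. The U74Av2 signal was 6.29 and 6.10 in the Foxa2 null pools, against 6.45 and 6.94 in the wild-type pools, below without overlap (log2 ratio -0.50, SE 0.25, adjusted p = 0.559 by limma). The brightest MOE430v2 probe set, 1435479_at, was 9.05 and 9.37 in the Foxa2 null pools, against 8.97 and 8.90 in the wild-type pools, above without overlap (0.28, SE 0.20, adjusted p = 0.631). The other 2 MOE430v2 probe sets had log2 ratios of -0.12 (1418910_at) and -0.28 (1432410_a_at), and only 1432410_a_at separated the groups, with Foxa2 null below. The difference between the platforms was not tested.

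Bmpr1a, the type I receptor whose loss stops gastrulation, lies on chromosome 14 (chr14:34411061-34503336). The U74Av2 probe set gave 6.83 and 7.25 in the Foxa2 null pools, against 6.50 and 6.79 in the wild-type pools, above without overlap by as little as 0.04 (log2 ratio 0.39, SE 0.23, adjusted p = 0.640 by limma). MOE430v2 carries 6 Bmpr1a probe sets, 5 of them designed from 1 target transcript, and their readings differed. The brightest, 1425492_at, was 10.96 and 10.97 in the Foxa2 null pools, between the wild-type values of 11.11 and 10.84 (log2 ratio -0.01, 95% interval -0.31 to 0.30). Probe set 1425494_s_at was 9.74 and 9.85 in the Foxa2 null pools, against 10.29 and 10.51 in the wild-type pools. Its log2 ratio of -0.61 (SE 0.15, 95% interval -0.95 to -0.27) had the lowest adjusted p of the 22 tested probe sets on this platform, 0.154 by limma.

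Of the remaining Bmpr1a probe sets, 1425493_at was at 0.06 with overlapping groups. Probe set 1425491_at was at -0.23, and 1451729_at was at -0.65 with a standard error of 0.36, the Foxa2 null pools below without overlap in each. The last, 1445413_at, was too dim to test. The log2 ratios of this 1 gene thus ran from -0.65 to 0.39 over both platforms. Which transcript forms the probe sets read was not tested.

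Smad5, one of the receptor-activated Smads, lies on chromosome 13 (chr13:56703010-56742378). It was dim on U74Av2, at 4.67 and 5.05 in the Foxa2 null pools, against 5.34 and 4.86 in the wild-type pools, and the groups overlapped (log2 ratio -0.24, SE 0.37). The brightest MOE430v2 probe set, 1433641_at, was 9.43 and 9.45 in the Foxa2 null pools, against 10.05 and 9.77 in the wild-type pools, below without overlap. Its log2 ratio was -0.47 (SE 0.17, adjusted p = 0.319 by limma). The 1451873_a_at probe set went the other way, with 8.50 and 8.46 in the Foxa2 null pools, against 8.30 and 7.88 in the wild-type pools (0.39, SE 0.26, adjusted p = 0.595), and 1421047_at was at -0.16 with overlap.

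**Figure D2:**
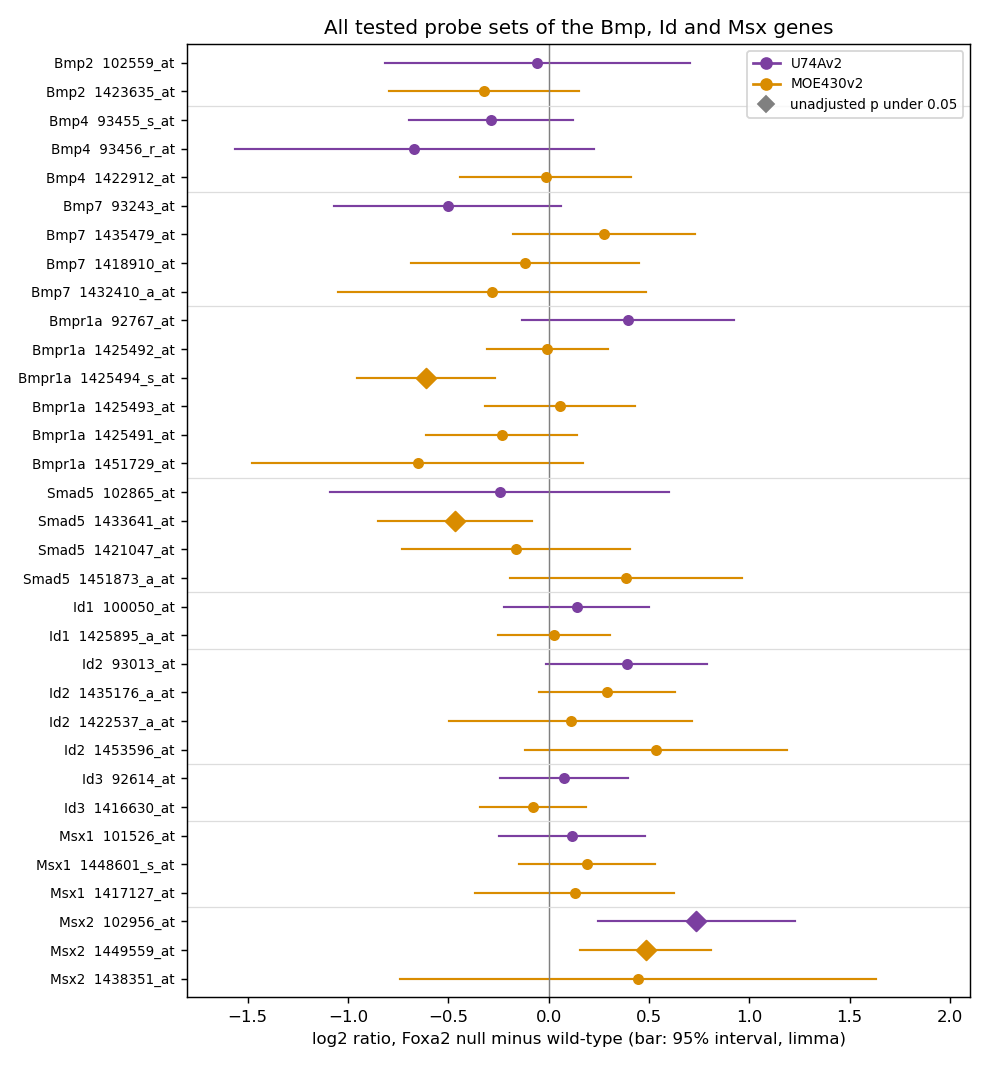
Foxa2 null minus wild-type on the log2 scale (horizontal axis) for each tested probe set of the 10 genes, with 95% limma intervals as bars, U74Av2 in purple, MOE430v2 in orange, and diamonds where the unadjusted p was under 0.05. The diamonds are Msx2 on both platforms (0.74 and 0.48), Bmpr1a 1425494_s_at (-0.61) and Smad5 1433641_at (-0.47), and probe sets of Bmp7, Bmpr1a and Smad5 lie on both sides of 0.

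The Id genes encode helix-loop-helix proteins with no DNA-binding region of their own, which bind E proteins and hold back differentiation, and they are a widely used readout of Bmp-activated Smads. Promoter windows are shown for Id2 and Id3 and for the Msx genes, the responsive genes of the list with a window, so that the letters upstream can be set beside genes that did and did not separate the groups. The sequences are RefSeq's for GRCm38.p6, 250 bases before to 50 after the annotated start, read 5′ to 3′ on the gene's strand. Capitals mark GGCGCC, a GC-rich motif bound by Smad1 and Smad5, and GTCT or its reverse complement AGAC, the Smad box, all searched on both strands, and these motifs cannot share bases.
Id2 (chr12:25096043-25096342, minus strand): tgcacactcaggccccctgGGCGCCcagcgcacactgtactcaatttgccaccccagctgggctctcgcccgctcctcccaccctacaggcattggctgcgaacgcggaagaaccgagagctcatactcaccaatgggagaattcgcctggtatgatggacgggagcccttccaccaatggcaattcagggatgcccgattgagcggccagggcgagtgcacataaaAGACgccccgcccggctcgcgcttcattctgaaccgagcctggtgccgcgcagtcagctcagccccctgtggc
Id3 (chr4:136143572-136143871, plus strand): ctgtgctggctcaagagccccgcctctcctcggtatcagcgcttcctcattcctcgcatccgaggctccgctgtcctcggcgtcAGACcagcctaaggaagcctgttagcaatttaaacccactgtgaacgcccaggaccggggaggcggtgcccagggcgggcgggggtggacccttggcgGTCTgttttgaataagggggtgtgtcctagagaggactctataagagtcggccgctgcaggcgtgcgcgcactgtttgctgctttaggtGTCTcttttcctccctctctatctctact
Msx1 (chr5:37824536-37824835, minus strand): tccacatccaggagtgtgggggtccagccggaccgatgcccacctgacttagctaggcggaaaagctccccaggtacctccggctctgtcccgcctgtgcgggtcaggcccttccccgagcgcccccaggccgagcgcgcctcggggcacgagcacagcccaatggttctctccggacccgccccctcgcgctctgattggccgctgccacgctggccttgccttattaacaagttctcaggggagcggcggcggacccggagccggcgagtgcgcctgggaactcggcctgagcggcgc
Msx2 (chr13:53472731-53473030, minus strand): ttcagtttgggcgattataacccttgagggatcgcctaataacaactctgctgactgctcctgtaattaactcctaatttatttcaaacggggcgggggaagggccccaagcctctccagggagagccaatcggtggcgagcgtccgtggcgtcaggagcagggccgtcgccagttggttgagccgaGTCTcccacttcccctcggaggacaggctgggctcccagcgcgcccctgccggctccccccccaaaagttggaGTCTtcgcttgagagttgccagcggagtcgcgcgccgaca

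Id2 held 1 GGCGCC and 1 Smad box, Id3 held 3 Smad boxes, Msx2 held 2 Smad boxes, and Msx1 held neither motif. Of all 32851 windows of this length, 11.9% held GGCGCC and 88.0% held GTCT or AGAC, so the Smad box count describes the letters only. In all, 7 of the 10 genes matched a window, also Bmp4, Bmpr1a and Smad5.

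Id1 lies on chromosome 2 (chr2:152736251-152737410). On U74Av2 its log2 signal was 9.35 and 9.03 in the Foxa2 null pools, against 9.07 and 9.03 in the wild-type pools, with Foxa2 null pool 1 alone above the rest (log2 ratio 0.14, SE 0.16, 95% interval -0.22 to 0.50). On MOE430v2 it was 11.42 and 11.70 in the Foxa2 null pools, around the wild-type values of 11.53 and 11.53 (0.03, 95% interval -0.25 to 0.31). Foxa2 null pool 1 was thus the highest of the 4 on U74Av2 and the lowest on MOE430v2.

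Id2, whose window above holds both motifs, lies on chromosome 12 (chr12:25093799-25096092). Its U74Av2 signal was 10.35 and 9.88 in the Foxa2 null pools, against 9.82 and 9.63 in the wild-type pools, above without overlap. The log2 ratio was 0.39 (SE 0.18, 95% interval -0.01 to 0.79, adjusted p = 0.528 by limma). The brightest MOE430v2 probe set, 1435176_a_at, was 11.44 and 11.07 in the Foxa2 null pools, against 11.06 and 10.88 in the wild-type pools, and the nearest values were only 0.01 apart (0.29, SE 0.15, adjusted p = 0.490). Probe set 1453596_at also separated the groups, at 0.54 (SE 0.29), while 1422537_a_at, at 0.11 (SE 0.27), did not.

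Most of the Id2 difference lay in Foxa2 null pool 1. Without that pool the log2 ratio was 0.15 on U74Av2 and 0.10 on MOE430v2, and without Foxa2 null pool 2 it was 0.62 and 0.48. The same pool had the highest summed signal of visceral endoderm markers, genes of the lipid-transporting epithelium around the embryo, on both platforms. On U74Av2 that sum was 12210 and 8202 in the Foxa2 null pools and 8407 and 7939 in the wild-type pools, with 11 of 13 markers tested above 0. On MOE430v2 it was 116000 and 94880 in the Foxa2 null pools and 86130 and 91570 in the wild-type pools, with 14 of 15 above 0. Hnf4a was too dim to test on U74Av2. Foxa2 null pool 1 was also the highest for trophoblast and extra-embryonic ectoderm markers, with 468.9 and 329.5 in the Foxa2 null pools and 391.3 and 288.5 in the wild-type pools on U74Av2, and 1634 and 1547 in the Foxa2 null pools and 1465 and 1440 in the wild-type pools on MOE430v2. Primitive blood markers likewise summed to 433.9 and 221.7 in the Foxa2 null pools and 208.1 and 403.9 in the wild-type pools on U74Av2, and to 2070 and 478.6 in the Foxa2 null pools and 668.1 and 1578 in the wild-type pools on MOE430v2. Of the trophoblast and extra-embryonic ectoderm markers tested, 2 of 3 were above 0 on U74Av2 and 1 of 4 on MOE430v2, and the rest of those measured were too dim to test. Of the blood markers tested, 4 of 7 were above 0 on U74Av2 and 2 of 4 on MOE430v2. On U74Av2, epiblast and embryo-proper markers summed to 2392 and 3360 in the Foxa2 null pools and 2401 and 2751 in wild-type. On MOE430v2 they summed to 25760 and 32920, against 24240 and 28710, so Foxa2 null pool 2 was highest for them on each platform. Of these markers, 5 of 6 tested were above 0 on U74Av2 (median 0.54) and 6 of 8 on MOE430v2 (median 0.36). The medians for visceral endoderm were 0.48 and 0.24. The part of these tissues in the Id2 values was not tested.

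Id3 lies on chromosome 4 (chr4:136143822-136145392). Its U74Av2 signal was 9.40 and 9.32 in the Foxa2 null pools, against 9.23 and 9.33 in the wild-type pools, a log2 ratio of 0.08 with a standard error of 0.14. On MOE430v2 it was 12.02 and 11.80 in the Foxa2 null pools, against 11.90 and 12.08 in the wild-type pools, with a log2 ratio of -0.08 (SE 0.12, 95% interval -0.34 to 0.19). The groups overlapped on both platforms. Of the 3 Id genes, Id2 alone separated the groups on each platform taken alone, and the difference between Id2 and the other 2 was not tested.

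Msx1 and Msx2 encode homeobox repressors that Bmp signalling switches on in ectoderm and extra-embryonic mesoderm. Msx1 lies on chromosome 5 (chr5:37820491-37824585). U74Av2 gave 8.48 and 8.65 in the Foxa2 null pools, against 8.52 and 8.38 in the wild-type pools (log2 ratio 0.11, SE 0.16). On MOE430v2 its brightest probe set, 1448601_s_at, was 10.58 and 10.81 in the Foxa2 null pools, against 10.37 and 10.63 in the wild-type pools (0.19, SE 0.15, 95% interval -0.15 to 0.53), and 1417127_at was at 0.13. Each Msx1 probe set was above 0 and each had overlapping groups.

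Msx2 lies on chromosome 13 (chr13:53466881-53472780), and its window, shown above, holds 2 Smad boxes. On U74Av2 it was 7.79 and 7.69 in the Foxa2 null pools, against 7.25 and 6.76 in the wild-type pools. Both Foxa2 null pools were above both wild-type pools, of which pool 2 was the lower. The log2 ratio of 0.74 (SE 0.22, 95% interval 0.24 to 1.23) is 1.66-fold, with an adjusted p of 0.251 by limma. On MOE430v2 the bright probe set 1449559_at was 10.28 and 10.22 in the Foxa2 null pools, against 9.79 and 9.74 in the wild-type pools. There the 4 comparisons lay within 0.43 and 0.53, and the log2 ratio of 0.48 (SE 0.15, 95% interval 0.15 to 0.81) is 1.40-fold, with an adjusted p of 0.230. The dim probe set 1438351_at was 6.77 and 6.85 in the Foxa2 null pools, against 6.84 and 5.88 in the wild-type pools, with a ratio of 0.45 that its standard error of 0.52 does not separate from 0.

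The U74Av2 arrays were hybridized on 2 days, each with 1 array per genotype, and the sources used here do not say which pools shared a day. For Msx2 the 4 comparisons on U74Av2 ran from 0.44 to 1.03, which covers either possible same-day pairing. For Id2 they ran from 0.06 to 0.72. All 4 MOE430v2 arrays were hybridized on 1 day. Without wild-type pool 2 the Msx2 ratio on U74Av2 was 0.49, and without wild-type pool 1 it was 0.98, while on MOE430v2 leaving out any 1 pool kept it within 0.45 and 0.51.

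Averaging the 2 arrays of each extract gave 1 value per pool and gene, centred on the gene's mean within each platform, for 5933 genes on both platforms. By limma on these values, 0 of the 10 genes passed an adjusted p of 0.05, against 2.41% of all (1.06% lower and 1.35% higher), and 2 were higher and 0 lower at an unadjusted p under 0.05, against 7.43% and 7.84% of all. Msx2 was 0.34 and 0.27 in the Foxa2 null pools, against -0.17 and -0.44 in the wild-type pools, a log2 ratio of 0.61 (SE 0.15, 95% interval 0.28 to 0.94, adjusted p = 0.0679). Id2 was 0.38 and -0.04 in the Foxa2 null pools, against -0.08 and -0.26 in the wild-type pools (0.34, SE 0.14, adjusted p = 0.302). These were the 2 genes above without overlap on each platform taken alone, which held for 8.73% of all 5933 genes, and no member was below without overlap on both, against 9.52%. Without Foxa2 null pool 2 the ratio was 0.55 for Id2 and 0.65 for Msx2, whereas without Foxa2 null pool 1 Id2 was at 0.13. Each of these fits keeps 1 Foxa2 null pool and so holds no spread between Foxa2 null pools.

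The other 8 genes were between -0.36 and 0.19 over both platforms. Smad5 was the lowest, at -0.28 and -0.07 in the Foxa2 null pools, against 0.37 and -0.01 in the wild-type pools (log2 ratio -0.36, SE 0.21, adjusted p = 0.480 by limma). The ligands lay at -0.19 for Bmp2, -0.15 for Bmp4 and -0.11 for Bmp7, each with overlapping pools and standard errors of 0.15 to 0.21. Bmpr1a was at 0.19, Msx1 at 0.15 and Id1 at 0.08, the Foxa2 null pools above without overlap in these 3, and Id3 was at -0.0003 (95% interval -0.25 to 0.25). Over the 10 genes, 5 were above and 5 below 0, with a median of 0.04 beside -0.01 over all genes tested. The Foxa2 null pools were above without overlap for 5 of them, against 22.2% of all genes, and below for 1, against 23.5%.

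**Figure D3:**
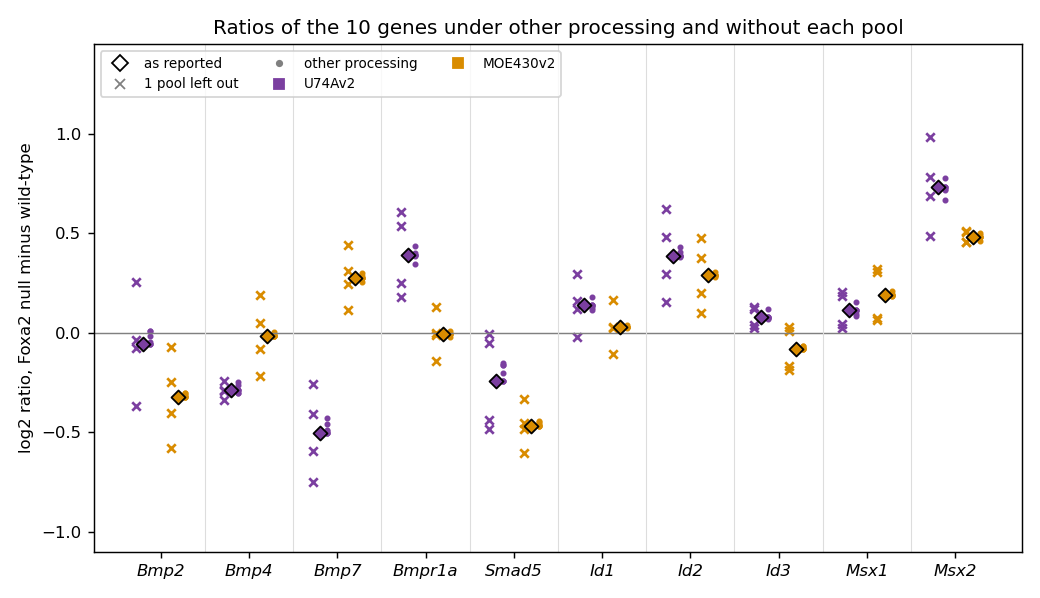
Foxa2 null minus wild-type on the log2 scale (vertical axis) for each gene on U74Av2 (purple) and MOE430v2 (orange) as reported (diamonds), with 1 pool left out (crosses) and under other normalization, filter, offset or fit (dots). Msx2, Id2 and Msx1 stay above 0 throughout, on U74Av2 between 0.49 and 0.98 for Msx2 and between 0.03 and 0.20 for Msx1. Crosses of Id1, Bmp2 on U74Av2 and Bmp4, Bmpr1a and Id3 on MOE430v2 lie on both sides of 0.

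The Id genes were also summarised as the mean centred profile of Id1, Id2 and Id3 over the 8 arrays. On U74Av2 it was 0.25 and -0.04 in the Foxa2 null pools, against -0.08 and -0.12 in the wild-type pools, and on MOE430v2 it was 0.09 and -0.01 in the Foxa2 null pools, against -0.04 and -0.04 in the wild-type pools. Foxa2 null pool 1 was the highest on both. Taken singly on MOE430v2, only Id2 was highest in that pool (11.44). Id1 was lowest there (11.42), and Id3 was highest in wild-type pool 2 (12.08). Among 5923 other genes, those with the smallest Euclidean distance (in log2 units) from this profile over the 8 arrays were Exosc7 (0.11), Cdip1 (0.12) and Ipo7 (0.13), beside a median distance of 0.62. The profile ran only from -0.12 to 0.25, so a small distance mostly marks a gene that varied little over the arrays. Id1, Id2 and Id3 themselves lay at 0.28, 0.40 and 0.31 from their own mean, farther than Exosc7, Cdip1 and Ipo7.

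Around the 10 genes, a list of 62 other ligands, receptors, Smads, antagonists, regulators and targets was measured. Counted by 1 probe set per gene, 32 could be tested on U74Av2, 15 above and 17 below 0. By limma 0 rose, against 0.0468% of all 6410 genes, and 1 fell, against 0.172%. On MOE430v2 48 were tested, 24 on each side of 0, of which 0 rose, against 0.176% of all 14180 genes, and 1 fell, against 0.282%. At an unadjusted p under 0.05, 3 were higher and 1 lower on U74Av2, against 5.13% and 4.98% of all, and 5 were higher and 8 lower on MOE430v2, against 6.28% and 7%. The median log2 ratio was -0.02 on both platforms, beside -0.01 over all genes tested on each.

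Over both platforms 31 were tested, of which 1 rose, against 1.35% of all genes tested, and 2 fell, against 1.06%. Of the 3 genes that passed on U74Av2, on MOE430v2 or over both as reported here, Cer1 and Fstl1 were listed as antagonists and Smad1 as a Smad. The antagonists lay below 0 in 5 of 6 tested on U74Av2 (median -0.30) and 8 of 12 on MOE430v2 (median -0.49). Over all genes tested, 3290 of 6410 on U74Av2 and 7357 of 14180 on MOE430v2 lay below 0 (median -0.01 on each). Cer1, a secreted antagonist of Bmp and Nodal made by anterior endoderm, had a U74Av2 log2 signal of 6.03 and 6.34 in the Foxa2 null pools, against 7.76 and 8.24 in the wild-type pools. It fell by 1.82 on the log2 scale there (SE 0.23, adjusted p = 0.0313 by limma), by 1.65 over both platforms (adjusted p = 0.0112), and was at -1.49 on MOE430v2 (adjusted p = 0.0825). With 1 pool left out, the MOE430v2 ratio of Cer1 ran from -1.91 to -1.06. Fstl1, a secreted follistatin-like protein, fell by 0.83 on MOE430v2 (adjusted p = 0.0485) and by 0.60 over both platforms (adjusted p = 0.0440), and was at -0.36 on U74Av2. The MOE430v2 value is that of probe set 1448259_at, and the other Fstl1 probe set, 1416221_at, was at -0.38 with overlapping groups (SE 0.28, adjusted p = 0.640). The MOE430v2 call did not hold without the filter on dim probe sets (adjusted p = 0.118 by limma) or without the variance trend (adjusted p = 0.470). It also did not hold with median centring, quantile normalization or the scaling alone. With 1 pool left out, the MOE430v2 ratio ran from -0.96 to -0.70. The call over both platforms did not hold without the filter or the trend, with median centring, or with the mean over probe sets (adjusted p = 0.0581 to 0.213). With 1 pool left out, the Fstl1 ratio over both platforms ran from -0.69 to -0.50. The Cer1 call on U74Av2 did not hold without the filter (adjusted p = 0.0923) or the trend (adjusted p = 0.250), nor over both platforms without the trend (adjusted p = 0.155).

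The node antagonist Chrd was too dim to test on U74Av2. On MOE430v2 it was 6.90 and 7.65 in the Foxa2 null pools, against 8.33 and 9.16 in the wild-type pools, without overlap (log2 ratio -1.47, SE 0.37, adjusted p = 0.154 by limma). Nog, which encodes Noggin, was at -0.03 on U74Av2 and -0.52 on MOE430v2, and Fst, which encodes follistatin, at -0.24 and -0.32, none of them past the test. With 1 pool left out, the Fst ratio over both platforms ran from -0.62 to 0.057. In the same arrays the brightest probe sets of Bmp2, Bmp4 and Bmp7 had ratios of -0.50 to 0.28, as the filled points in the plot of pathway genes by role show. The other ligands tested, all below 0, reached -0.81 for Gdf2 on MOE430v2 (adjusted p = 0.363 by limma).

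**Figure D4:**
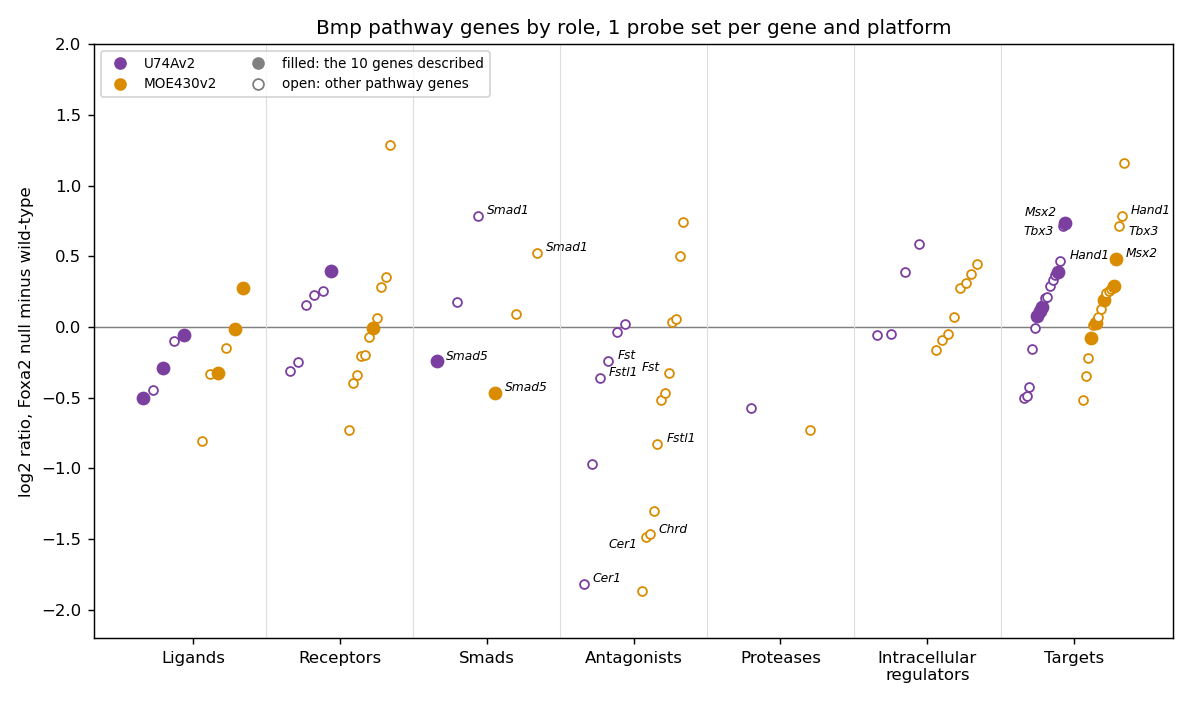
Foxa2 null minus wild-type on the log2 scale (vertical axis) for Bmp pathway genes grouped by role (horizontal axis), 1 probe set per gene, U74Av2 in purple and MOE430v2 in orange, with the 10 genes described as filled points and other pathway genes open. The antagonists reach down to -1.87, the unlabelled point of Dand5 on MOE430v2 (adjusted p = 0.208 by limma). Dand5 was dim, with Foxa2 null signals of 5.31 and 5.68 beside a lowest tested mean of 5.77. The ligands and Smad5 among the filled points lie between -0.50 and 0.28, and Msx2 lies at 0.74 and 0.48.

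Among partners of Smad5 and Bmpr1a, Smad1, the closest relative of Smad5, was at 0.79 on U74Av2 (adjusted p = 0.133 by limma) and 0.52 on MOE430v2 (adjusted p = 0.183), and it rose by 0.66 over both platforms (SE 0.12, adjusted p = 0.0307). This call did not hold with median centring (adjusted p = 0.0618) or without the variance trend (adjusted p = 0.185). With 1 pool left out, the Smad1 ratio over both platforms ran from 0.55 to 0.76. Chromosome 8, which holds Smad1, had a median log2 ratio over its genes of 0.32 on U74Av2 and 0.35 on MOE430v2, and the part of this shift in the Smad1 value was not tested. None of the 10 genes lies on chromosome 8. The common Smad, Smad4, was at 0.18 on U74Av2 and, by its brightest probe set, 0.09 on MOE430v2. Its other MOE430v2 probe sets were above without overlap, 1422485_at at 0.50 (SE 0.10, adjusted p = 0.0875) and 1422486_a_at at 0.38 (SE 0.16, adjusted p = 0.391). The type II receptor Bmpr2 was at 0.23 on U74Av2 and, by its brightest probe set, 0.07 on MOE430v2. There 1419616_at was above without overlap, at 1.15 (SE 0.44, adjusted p = 0.350 by limma), and 1441652_at was at 0.16 with overlap. The type I receptors Acvr1 and Bmpr1b, tested on MOE430v2 only, were at -0.07 and -0.40 by their brightest probe sets. For Acvr1, 1416787_at was above without overlap, at 0.80 (SE 0.29, adjusted p = 0.321), and 1416786_at was at 0.09 with overlap. Of 10 receptors besides Bmpr1a tested on MOE430v2, 4 were above and 6 below 0 (median -0.13). At an unadjusted p under 0.05 by limma, 0 were higher and 2 lower, Acvr2b (-0.34) and Eng (-0.73), both without overlap. Acvr2b probe set 1439856_at was at -0.91 without overlap (SE 0.17, adjusted p = 0.05998), and 1440525_at at 0.39 with overlap. Over both platforms Eng was at -0.52 (adjusted p = 0.148), Acvr2b at -0.30 and Acvrl1 at 0.77 (adjusted p = 0.258). The inhibitory Smads, which Bmp signalling itself induces, were at 0.59 on U74Av2 and 0.28 on MOE430v2 for Smad7 and at -0.05 and 0.38 for Smad6.

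Of the other target genes, Hand1, a regulator of extra-embryonic mesoderm and heart, was 11.51 and 11.85 in the Foxa2 null pools on MOE430v2, against 10.86 and 10.93 in the wild-type pools (log2 ratio 0.78, SE 0.14, adjusted p = 0.0551 by limma), and 0.47 on U74Av2, where its dimmer probe set 161468_f_at was at 1.09 (SE 0.19, adjusted p = 0.0899). Over both platforms Hand1 was at 0.62 (adjusted p = 0.0501), and it passed there with an offset before log2 (adjusted p = 0.0389) and with the mean over probe sets (adjusted p = 0.0292). On MOE430v2 it passed with the offset (adjusted p = 0.0412). With 1 pool left out, the Hand1 ratio ran from 0.43 to 0.82 over both platforms and from 0.61 to 0.95 on MOE430v2. Tbx3, a T-box factor, was at 0.72 on each platform by its brightest probe set (adjusted p = 0.497 on U74Av2 and 0.112 on MOE430v2). The other tested MOE430v2 probe sets of Tbx3 were at 0.43 without overlap (1437479_x_at, SE 0.19) and 0.40 with overlap (1445757_at, SE 0.64). Id4, the family member that was not among the 10, was on the other side by its brightest probe sets, at -0.42 and -0.52 (adjusted p = 0.694 and 0.389 by limma). Its other MOE430v2 probe sets were at -0.03 with overlap (1450928_at) and -0.39 without overlap (1423259_at). Hand1, like Msx2, is also expressed in extra-embryonic mesoderm. A marker list for that tissue, amnion and allantois had a summed MOE430v2 signal of 3514 and 4134 in the Foxa2 null pools and 2636 and 2591 in the wild-type pools, with 3 of 6 tested genes above 0. Hand1 made up 83.0% and 89.3% of that sum in the Foxa2 null pools and 70.5% and 75.4% in the wild-type pools, and without it the sum was 598.9 and 442.2 in the Foxa2 null pools and 776.6 and 637.2 in the wild-type pools. On U74Av2 the sum was 617.9 and 828.8 in the Foxa2 null pools and 621.2 and 516 in the wild-type pools, and without Hand1 it was 129.8 and 160.5 in the Foxa2 null pools and 180.6 and 127.9 in the wild-type pools, with overlap in both. The part of these tissues in the Msx2 values was not tested.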

How the data were processed

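The authors deposited a linear MAS5 intensity for each probe set of 4 U74Av2 and 4 MOE430v2 arrays. After trimming 2% at each end, array means were 150 for U74Av2, where the methods name another target, and 500 for MOE430v2. Values were floored at 0.1 and taken to log2. U74Av2 arrays were used as scaled and MOE430v2 arrays after cyclic loess, which the methods describe and the deposited intensity values do not carry. Control probe sets and the dimmest 30% were left out, which left 8695 and 31526. Foxa2 null minus wild-type was tested with limma 3.58.1 (R 4.3.3, variance trend on) and adjusted by Benjamini-Hochberg over all probe sets tested, per platform and over both, where the arrays of 1 extract were averaged. The scripts were tested on simulated data. Where 1 probe set stands for a gene, it is that of highest mean log2 signal.

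Groups came from the labels. Pools hold separate embryos, and no depth exists for arrays, so their number limits the precision. Named genes were all probe sets of the 10 members and, from the pathway list, genes with an unadjusted p under 0.05 on both platforms in 1 direction or past the adjusted threshold in any fit, plus a set of receptors, Smads, antagonists and Id4 whatever their values. Acvr2b, Eng, Acvrl1, Gdf2 and Dand5 were given for their values, outside this rule. The members and lists were chosen with earlier results of these data known. Gene names came from the platform annotation, and coordinates from RefSeq (GRCm38.p6). Present calls and probe-level values were not used here. Alternatives were no filter, no trend, the replicate number as a block, an offset, other normalizations, the mean over probe sets of a gene, and each pool left out.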

Additional observations from a re-analysis of the deposited data

How the results depend on the processing

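No member passed the test under any other filter, offset or normalization run. Of 320 alternative values of member ratios, 300 kept direction and side of the threshold, as did 368 of 417 for the named pathway genes. Samples share only a number here: with the replicate number as a block (replicate block), 1 member was called on U74Av2 (Msx2, adjusted p = 0.0389), 1 on MOE430v2 (a Bmpr1a probe set, 0.00912) and 1 over both (Msx2, 0.00580), while over all probe sets 129 were lower and 163 higher on U74Av2 (15 and 9 without the block) and 802 and 846 on MOE430v2 (77 and 60). Of the named pathway genes, Cer1, Chrd, Hand1, Smad1 and Tbx3 gained a call with this block. Leaving out 1 pool left 1 pool in its group, so those fits are described by their ratios alone. The counts of alternative values above include them. limma without the trend called 0 probe sets on either platform.

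Ratios near 0 changed sign. After median centring Bmp4 was at 0.0063 and Bmpr1a at 0.0099 on MOE430v2, Id3 at 0.027 over both, and Nog at 0.0098 on U74Av2. On U74Av2, Bmp2 was at 0.0072 and Nog at 0.0091 after cyclic loess, and Bmp2 at 0.0096 after quantile normalization. With 1 pool left out, U74Av2 ratios ran from -0.37 to 0.25 for Bmp2, -0.019 to 0.30 for Id1, -0.13 to 0.59 for Bmpr2, -0.60 to 0.12 for Fst and -0.35 to 0.25 for Smad6. MOE430v2 ratios ran from -0.22 to 0.19 for Bmp4, -0.14 to 0.13 for Bmpr1a, -0.11 to 0.16 for Id1, -0.18 to 0.027 for Id3, -0.36 to 0.22 for Acvr1 and -0.91 to 0.12 for Bmpr1b. Over both they ran from -0.38 to 0.0036 for Bmp2, -0.073 to 0.073 for Id3, -0.045 to 0.34 for Bmpr2 and -0.62 to 0.057 for Fst. The cause was not tested. Standard errors of the member ratios were 0.10 to 0.52. With 2 pools per genotype, differences well above their standard errors also did not pass. Examples by limma are Foxa2 on U74Av2 (-1.25, SE 0.26, adjusted p = 0.13) and Msx2 over both platforms (0.61, SE 0.15, adjusted p = 0.0679). A ratio that did not pass is thus not shown to be absent.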
